A study of Mus musculus with 18 samples.

Results

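Long RNA of mouse embryonic stem (ES) cells exposed to cisplatin was compared with that of vehicle-exposed cells in RNAome sequencing, a method in which long and small RNA are read from the same library. The comparison covers 6 of the 18 libraries of the series. Cisplatin libraries are named 8.3.3, 8.4.3 and 8.5.3 and control libraries 8.4.16, 8.5.16 and 8.6.16, after the sample codes in their titles. Every library came from C57BL/6 ES cells deficient in HPRT, a purine salvage enzyme, at passage 19 to 22, so the controls carry that deficiency too. Cells had been kept on feeder cells and then on gelatin before 2.5 µM cisplatin, or DMSO as vehicle, was added. How long the cells were exposed is not stated in the labels. No label ties the 3 samples per group to separate cultures, and p-values here therefore cover only the spread among these libraries. All RefSeq transcript rows of the RNAome long RNA table were taken, with 1 row kept per gene, which gave 13662 genes, of which 9811 had enough counts to be tested. Hprt was not analysed here.

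Cisplatin forms platinum adducts and crosslinks on DNA, which stall replication and transcription and are removed by excision and crosslink repair. Damage stabilises the transcription factor p53, whose targets arrest the cell cycle, assist repair or start apoptosis, and which acts against self-renewal genes in ES cells. Replication-dependent histone genes are transcribed during DNA synthesis, and their mRNAs end in a stem-loop in place of a poly(A) tail, so they are seen poorly after poly(A) selection and well in total RNA.

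The long RNA tables held 43404675 to 94373096 counts per library. Of these, 4959835 to 19234636 lay on tested genes, with the lowest total in control 8.4.16. Non-coding RefSeq rows, mostly small nucleolar RNAs (snoRNAs), took 81.4% to 92.5% of the counts on tested genes. Levels are given as CPM, whose denominator is the total on tested genes after TMM scaling, so the CPM of protein-coding genes are small numbers. All 8 ES cell markers were detected, and their summed level was 344 to 361 CPM in the cisplatin and 403 to 444 CPM in the control libraries, with none past the threshold. Of 10 feeder fibroblast markers, 5 were in the rows used and only Fn1, fibronectin, had enough counts for a test. Their summed level was 12.1 to 14.7 CPM with cisplatin and 12.8 to 28.5 CPM in the controls. Postn had 2, 1 and 3 counts with cisplatin and 0 in each control library. Col1a2 went the other way, with 0, 3 and 3 counts against 10, 2 and 1. In bulk RNA of this kind, fewer cells of a type and less RNA per cell cannot be told apart.

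Cisplatin changed 205 of the 9811 genes tested (2.09%) at an adjusted p under 0.05 in edgeR's quasi-likelihood test. Of these, 97 (0.989%) were higher and 108 (1.1%) lower, and 56 of the lower genes were replication-dependent histones. The groups of 3 libraries did not overlap for 1888 genes (19.2%), among them all 97 higher and 105 of the lower genes. The smallest change called was 0.59 on the log2 scale. Scaling by library size alone used all long RNA counts of a library, of which those on tested genes were the smaller part. It moved the median change of all genes from -0.01 to 0.30 on the log2 scale. It left 12 genes higher and 0 lower by edgeR, with 50 lower at an unadjusted p under 0.05. DESeq2 with its own size factors called 57 higher and 96 lower. Leaving the histone genes out of the fit gave 82 higher and 37 lower, against 97 and 52 outside the histones in the full fit. With 0 histones among the higher genes, removing them by itself raises the higher share of calls, which went from 47.3% to 68.9%.

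**Figure D1:**
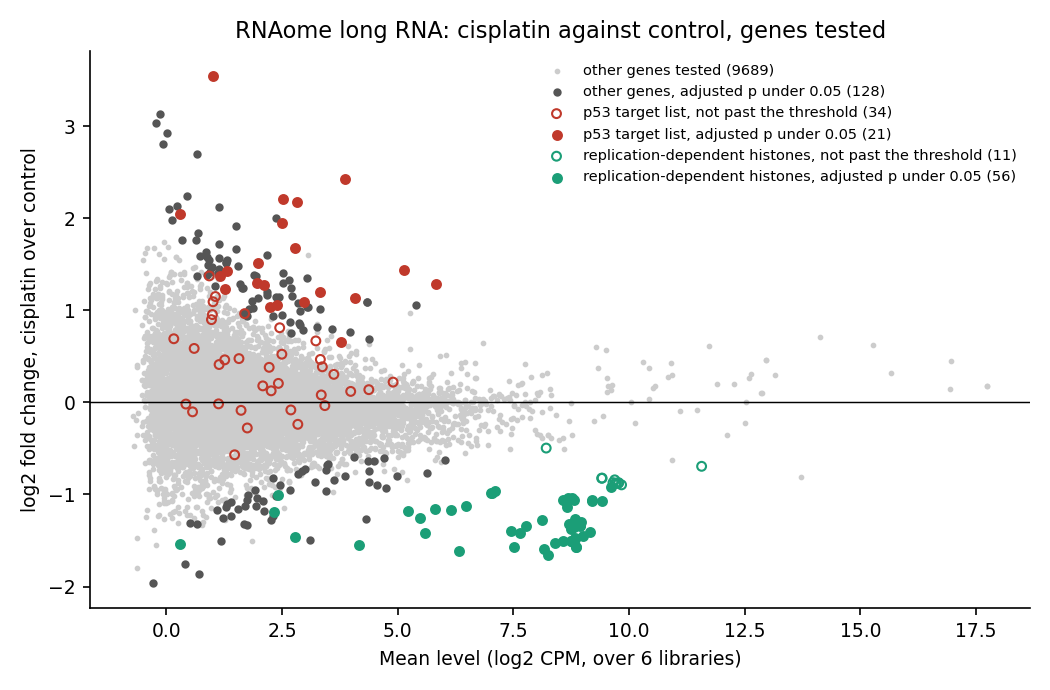
Log2 fold change of each tested gene (cisplatin over control, y axis) against its mean level in log2 CPM over 6 libraries (x axis). Of the p53 target list, 21 genes (filled red) passed the threshold, all above 0, and 56 replication-dependent histone genes (filled green) passed it, all below 0.

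Genes that p53 is known to activate made up 21 of the 97 increases. Of 61 p53 targets in the rows used, 55 were tested: 21 were higher, 0 were lower, and 34 did not pass (DESeq2 called 16 higher), against 0.989% higher over all genes tested. Their median log2 change was 0.69, with 46 of 55 above 0, while the median of all genes tested was -0.01. The list was chosen with earlier results of these data known. The summed level of the 55 genes was 471 to 544 CPM in the cisplatin libraries and 262 to 320 CPM in the controls, so the groups did not overlap.

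Plk2, a polo-like kinase of the p53 response, was at 20.2, 23.6 and 25.5 CPM in cisplatin 8.3.3, 8.4.3 and 8.5.3 and at 5.13, 5.37 and 2.46 CPM in control 8.4.16, 8.5.16 and 8.6.16. Every cisplatin library lay far above every control, and the log2 change was 2.43 ± 0.22 (SE, edgeR adjusted p = 1.35e-05). The gene lies at chr13:111185252-111191052 on the plus strand of NCBIM37. Btg2, an antiproliferative cofactor, was at 9.98, 10.1 and 11.7 CPM with cisplatin and at 1.71, 3.01 and 1.93 CPM in the controls. Its increase was 2.18 ± 0.22 (edgeR adjusted p = 3.74e-05). Ddit4, an inhibitor of mTORC1 signalling, was at 7.77, 8.7 and 8.9 CPM against 3.04, 1.41 and 1.5 CPM, a log2 change of 2.21 ± 0.25 (edgeR adjusted p = 8.45e-05). Zfp365, a zinc finger protein of the DNA damage response, was at 7.88, 8.21 and 8.26 CPM against 3.04, 1.6 and 2.03 CPM and rose by 1.95 ± 0.23 (edgeR adjusted p = 0.000135). In Ddit4 and Zfp365 the highest control was 8.4.16, and in Btg2 it was 8.5.16. These 4 genes passed in each of the 6 fits that left out 1 library.

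The textbook members of the pathway moved less. Ccng1, cyclin G1, was the most abundant of those named, at 70.6, 81.2 and 89 CPM with cisplatin and 32.1, 41 and 25 CPM without. The lowest cisplatin value exceeded the highest control value, and the log2 change was 1.29 ± 0.19 (edgeR adjusted p = 0.000668). Cdkn1a, which encodes the cyclin-dependent kinase inhibitor p21 and lies at chr17:29227924-29237667 on the plus strand of NCBIM37, was at 3.91, 5.5 and 5.42 CPM against 2.28, 1.6 and 2.25 CPM. Its log2 change was 1.30 ± 0.26 (edgeR adjusted p = 0.00725), and the call was lost without cisplatin 8.4.3 or control 8.5.16, with an adjusted p of up to 0.0641. Mdm2, the ubiquitin ligase that degrades p53, was at 18.9, 22.7 and 25.8 CPM against 14.6, 10.4 and 6.53 CPM. It rose by 1.14 ± 0.22 (edgeR adjusted p = 0.00625), with control 8.4.16 closest to the cisplatin libraries, and without control 8.6.16 its adjusted p was 0.0514.

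The called members of the repair and apoptosis lists were all on the p53 list as well, and each list's count stands against 0.989% higher over all genes tested. Ercc5, the XPG nuclease that cuts beside a lesion in nucleotide excision repair, was at 8.52, 9.23 and 11.5 CPM against 2.47, 3.58 and 2.78 CPM and rose by 1.67 ± 0.21 (edgeR adjusted p = 0.000244). It was the only 1 of 27 excision repair genes called, and the list's median was -0.01. Polk, a translesion polymerase, was the only 1 of 38 tested crosslink and recombination repair genes called, at 5.37, 6.74 and 7.71 CPM against 3.23, 3.39 and 2.78 CPM (log2 change 1.06 ± 0.22, edgeR adjusted p = 0.0102, and up to 0.0776 without cisplatin 8.4.3 or control 8.6.16). Of 24 tested apoptosis regulators, 3 were higher and 0 lower, with a median of 0.12. Apaf1, the core of the apoptosome, was at 12.3, 15.6 and 11.4 CPM against 6.46, 6.5 and 4.39 CPM, a log2 change of 1.20 ± 0.20 (SE, edgeR adjusted p = 0.00187) that was called in every fit leaving out 1 library. The BH3-only genes Bbc3 (Puma, log2 change 1.38 ± 0.33, edgeR adjusted p = 0.0309) and Pmaip1 (Noxa, 1.23 ± 0.30, 0.0382) passed in 1 of those 6 fits each. In DESeq2 their adjusted p was 0.0762 and 0.118.

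The remaining p53 targets called ranged from 0.66 for Ei24 to 3.55 for Tap1, both named after their values were seen. Tap1, a peptide transporter of antigen presentation, had 1, 3 and 2 counts in the controls and 35, 65 and 43 with cisplatin, which is 0.229 ± 0.0481 CPM (SD, n = 3) against 2.96 ± 0.954 CPM.

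The 12 largest increases among genes above a mean log2 CPM of 1 included 5 of these p53 targets. The others were Mcam, a cell adhesion molecule (7.35 ± 0.638 CPM with cisplatin against 1.71 ± 0.681 CPM, SD, n = 3, log2 change 2.00), Fam83h, a keratin-binding scaffold (3.03 against 0.655 CPM, 2.13), and Lpin1, a phosphatidate phosphatase (3.85 against 1.10 CPM, 1.91). Aldh4a1, an enzyme of proline breakdown, was at 6.08 ± 0.435 against 2.12 ± 0.634 CPM (SD, n = 3). These 4 genes passed in each fit that left out 1 library. Klhl26 (1.72) and Prrg4 (1.66) passed in 5 of 6 fits and were lost without control 8.6.16, with an edgeR adjusted p of 0.0514 and 0.0614. Hspa1b, an inducible heat shock protein with a near-identical copy, had 1.57 and passed in 2 of 6 fits, with an adjusted p of up to 0.0655 without cisplatin 8.3.3 or 8.4.3 or control 8.5.16 or 8.6.16. Its expression-table counts were 1.63 times its abundance-table counts, and with the latter its adjusted p was 0.0580. Nodal, a TGF-beta family ligand of the early embryo, was the only 1 of 20 tested nodal and BMP pathway genes called, against 2.09% of all genes called in either direction. It was at 8.06, 9.89 and 9.64 CPM with cisplatin and 4.75, 4.8 and 3.53 CPM in the controls, and rose by 1.08 ± 0.20 (edgeR adjusted p = 0.00442).

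**Figure D2:**
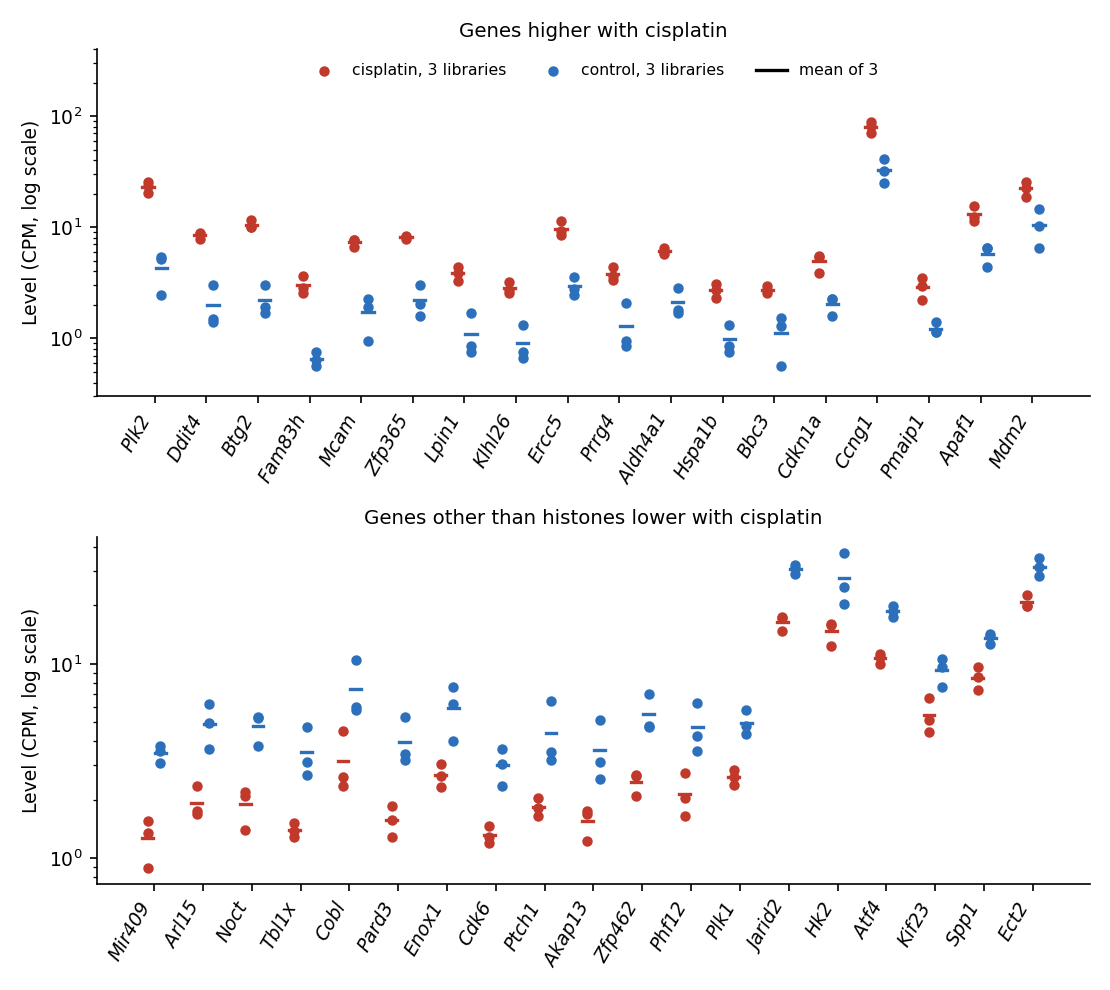
Levels in CPM (log axis) of named genes in each library, with cisplatin in red, control in blue and a bar at the mean of 3. The cisplatin and control points do not overlap for any gene shown, which was a condition for choosing the 12 largest changes in each direction. Means go from Plk2 (23.1 against 4.32 CPM) to Ect2 (20.8 against 31.6 CPM).

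Some promoters of these genes were read for a p53 response element, meaning 2 half-sites of 10 bases with an exact core, at most 2 other mismatches in all and a spacer of up to 13 bases, on both strands since the element is its own reverse complement. The windows ran from 250 bases before to 50 after RefSeq gene starts on GRCm38.p6. Such a match stood in 163 of 7577 tested genes with a promoter sequence (2.15%). It stood in 5 of 70 higher genes (7.14%), in 2 of 41 lower genes outside the histones (4.88%) and in 8 of 43 tested p53 targets (18.6%). Among p53 targets called higher it stood in 2 of 17 (11.8%), and among higher genes not on the list in 3 of 53 (5.66%). A match describes letters and is not shown here to be bound. The matches of 2 p53 targets called higher are printed with half-sites in capitals and flanking bases in lower case, because they show what a match looks like. That of Cdkn1a, without a mismatch, begins 73 bases before one of its annotated starts, and that of Zfp365 has 2 mismatches and no spacer. Where several pairings fit, the pairing with the fewest mismatches was marked. In Cdkn1a the last 10 bases, printed in lower case, also fit a half-site within the mismatch limit, with no spacer. The printed stretches, flanks included, are chr17:29090896-29090947 (plus strand) and chr10:67912696-67912735 (minus strand).
Cdkn1a: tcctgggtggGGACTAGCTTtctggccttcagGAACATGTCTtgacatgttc
Zfp365: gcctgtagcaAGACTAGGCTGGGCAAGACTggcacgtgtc

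Replication-dependent histone genes fell as a group. Of 67 tested, 56 were lower and 0 higher, against 1.1% lower over all genes, and all 67 had a negative log2 change, from -1.66 to -0.50 with a median of -1.28. All 6 linker histone H1 genes, all 18 H2A, all 18 H2B and all 12 H3 genes were lower, with medians of -1.39, -1.51, -1.33 and -1.06. The 18 H2B genes gave only 17 distinct sets of counts, because a pair had identical counts. Of 13 H4 genes 2 were lower by edgeR and 12 by DESeq2, and the median was -0.87. Core histone genes are near-identical copies: 58 of the 67 had expression-table counts at least 1.5 times their abundance-table counts. Counting could assign a read to several such copies, which was not tested, and each core gene is therefore uncertain on its own. With abundance counts, 64 histone genes were lower, 11 of them H4, and the median was -1.25.

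The H1 genes, which bind linker DNA between nucleosomes, are more distinct in sequence, and none of the 6 reached that ratio. H1f2, at chr13:23830676-23832235 on the plus strand of NCBIM37, was at 37.5, 41.3 and 39.7 CPM with cisplatin and 115, 139 and 109 CPM in the controls. No library overlapped, and the gene fell by 1.61 ± 0.17 on the log2 scale (edgeR adjusted p = 4.31e-05). H1f4 was at 7.65, 9.23 and 11.2 CPM against 25.6, 27.6 and 27.8 CPM and fell by 1.54 ± 0.17 (edgeR adjusted p = 4.95e-05). H1f3 was at 21.3, 21.5 and 26.4 CPM against 49.2, 56.4 and 50.4 CPM, and fell by 1.18 ± 0.16 (edgeR adjusted p = 0.000383). H1f1 was at 39.7, 45 and 46.3 CPM against 64.8, 127 and 101 CPM, with control 8.4.16 well under the other controls, and fell by 1.17 ± 0.21 (edgeR adjusted p = 0.00372). These 4 genes passed in each fit leaving out 1 library. H2aw, the H2A gene with the largest decrease, was at 134, 147 and 157 CPM against 380, 521 and 480 CPM (log2 change -1.66 ± 0.21, edgeR adjusted p = 0.000211).

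Control 8.4.16 held less histone RNA than the other controls: the summed H1 level was 295 CPM there, 427 in 8.5.16 and 362 in 8.6.16, and 133 to 162 CPM in the cisplatin libraries. Without 8.4.16 the histone genes called lower numbered 63. They numbered 33 without cisplatin 8.3.3 and 27 without cisplatin 8.4.3.

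A histone stem-loop, a hairpin of 6 paired bases with a loop of 4, was searched on the sense strand from 1000 bases before to 100 after the gene end on NCBIM37. It was found in 53 of 66 histone genes placed there (80.3%) and in 1 of 9230 other tested genes (0.0108%). That 1 gene was H2ax, the variant phosphorylated at DNA breaks. It was also the only replacement histone gene called lower among 10 tested, against 1.1% over all genes tested. The stem-loop came in 8 forms, 1 of which stood in 30 genes. The H4 genes carried forms other than those of H1, H2A, H2B and H3. The median change was -1.25 for histone genes with a match and -1.34 for the 13 without one in this window. The sites of 4 genes are shown because the hairpin is what sets this mRNA class apart, with the 16 bases of the hairpin in capitals. They lie at chr13:23831381-23831396 (H1f2, plus strand), chr13:21845251-21845266 (H2ac15, minus), chr13:23643160-23643175 (H4c6, minus) and chr9:44143323-44143338 (H2ax, plus).
H1f2: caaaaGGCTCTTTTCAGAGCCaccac
H2ac15: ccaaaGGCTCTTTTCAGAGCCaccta
H4c6: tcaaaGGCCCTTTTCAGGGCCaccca
H2ax: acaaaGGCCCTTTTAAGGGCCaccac

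H2ax was at 36.8, 36.6 and 36.9 CPM with cisplatin and 48.1, 76.1 and 62.7 CPM in the controls, a log2 change of -0.77 ± 0.17 (edgeR adjusted p = 0.0216). It passed in 1 of 6 fits leaving out 1 library, and in the abundance table its change was -0.27 with an adjusted p of 0.463, so its decrease rests on counts that the 2 tables treat differently. The 28 genes of histone mRNA processing and turnover had 0 called by edgeR or DESeq2, 3 at an unadjusted p under 0.05, and a median of 0.08. The 38 genes of DNA replication and the G1/S transition likewise had 0 called by either tool, 3 at an unadjusted p under 0.05, and a median of 0.03.

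The mRNA libraries, made with a kit that selects poly(A) RNA and carrying the same 6 sample codes, give the change of the same genes side by side. The median change of the histone genes was -0.29 there against -1.28 in RNAome libraries, and that of H1f2 was -0.82 against -1.61. For the 55 p53 targets the medians were 0.56 and 0.69, and for Plk2 the changes were 2.31 and 2.43. The difference in treatment effect between assays, tested as an interaction over 12 libraries, passed the threshold for 0 of 9501 genes in edgeR (0%), where 519 had an unadjusted p under 0.05 and the smallest adjusted p was 0.288. DESeq2 called 26 genes, 22 more negative and 4 more positive in RNAome libraries, with 16 histones among the 22. With the sample code as a block, since both kinds of library carry it, 10 genes (0.105%) were called, all more negative in RNAome libraries and 9 of them histones. Without the 2 libraries of control 8.4.16, 19 were called in the unblocked edgeR fit, 15 of them histones and 2 of them positive. All histones called in these fits were core genes, many of them near-identical copies, so their numbers do not count separate measurements. The H2A genes H2ac6, H2ac11, H2ac23 and H2ac24 had interaction terms between -1.03 and -0.99. Their expression-table counts were 7.65 to 9.07 times their abundance-table counts. The positive terms with the smallest p, none past the threshold in the edgeR fit over all 12 libraries, were those of Adgra3, an adhesion receptor (0.81 ± 0.16), Slc31a1, the copper transporter CTR1 (0.86 ± 0.18), Arpp19 (0.69), Stat5b (1.40), Exosc5 (0.69) and Mapk3 (0.68). DESeq2 called 4 of these, with adjusted p-values of 0.00367 for Adgra3, 0.00765 for Slc31a1 and 0.0357 for both Arpp19 and Mapk3, and Adgra3 was called by edgeR without control 8.4.16 (adjusted p = 0.0499). On the negative side DESeq2 also called Cd276, an immune checkpoint ligand (-1.16, adjusted p = 0.00532). Slc31a1 was at 8.99, 8.39 and 9.55 CPM with cisplatin and 5.32, 5.84 and 3.64 CPM in control RNAome libraries (log2 change 0.86 ± 0.20, edgeR adjusted p = 0.0234, and up to 0.129 without any cisplatin library or control 8.6.16), while its mRNA change was -0.02.

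**Figure D3:**
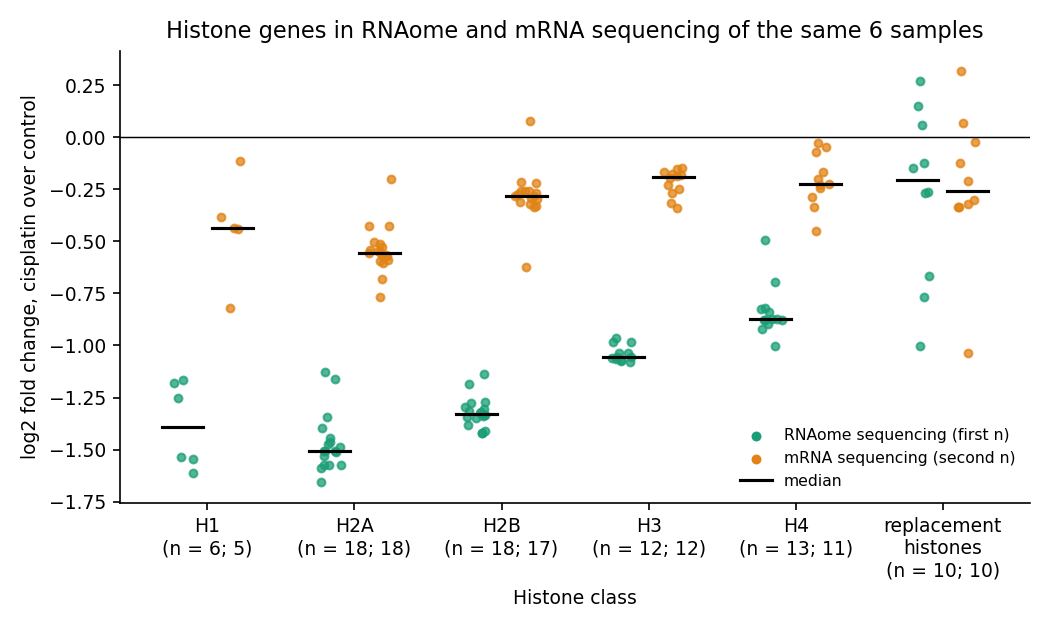
Log2 fold change (cisplatin over control) of each histone gene by class, in RNAome (green) and mRNA sequencing (orange) of the same samples, with bars at the medians. In H2A the medians are -1.51 and -0.56, and in the replacement histones they are -0.21 and -0.26. The mRNA median of all replication-dependent histones is -0.29.

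Outside the histones 52 of 9744 tested genes (0.534%) were lower, and Jarid2, Atf4 and Hk2 were among them. Jarid2, a cofactor of the Polycomb complex PRC2, spans chr13:44824843-45017012. It was at 17.3, 17.3 and 14.8 CPM with cisplatin and 32.3, 28.9 and 31.2 CPM in the controls, with tight groups that did not overlap. It fell by 0.90 ± 0.15 (edgeR adjusted p = 0.00279) and passed in each fit leaving out 1 library. Atf4, the transcription factor of the integrated stress response, was at 11.2, 10.9 and 10 CPM against 17.5, 18.7 and 19.9 CPM and fell by 0.80 ± 0.15 (edgeR adjusted p = 0.00581, and 0.0649 without cisplatin 8.4.3). Of the 23 tested genes of the ATF4 list Atf4 alone was lower and Ddit4 alone higher, and the median was -0.15. Over all genes tested 1.1% were lower and 0.989% higher. Hk2, a hexokinase, was at 15.9, 16 and 12.4 CPM against 37.4, 20.4 and 24.9 CPM (log2 change -0.87 ± 0.20, edgeR adjusted p = 0.0212). Its highest level was in control 8.4.16, and it passed in 1 of 6 fits leaving out 1 library. Of 26 tested hypoxia and glycolysis genes Hk2 was the only 1 called, and the list's median was 0.05.

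Pluripotency genes were mostly a little lower without passing the test. Of 37 tested, 34 had a negative change, against 4966 of all 9811 genes, and the median was -0.45. Against 1.1% lower over all genes, 2 were lower, Jarid2 and Spp1 (osteopontin, -0.68 ± 0.17, edgeR adjusted p = 0.0337, called in 1 of 6 fits leaving out 1 library). Their summed level was 698 to 724 CPM with cisplatin and 871 to 936 CPM in the controls. Pou5f1, the Oct4 gene, was at 78.3 CPM with cisplatin and 88.9 CPM in the controls (-0.18 ± 0.16, edgeR adjusted p = 0.688), and Nanog at 18.6 and 26.4 CPM (-0.51 ± 0.18, edgeR adjusted p = 0.176). Of 43 genes of G2 and mitosis, 40 had a negative change, with a median of -0.32 and 3 called lower, to be read against the same shares. These were Plk1, the mitotic polo-like kinase (2.39, 2.62 and 2.85 CPM against 4.37, 4.8 and 5.78 CPM, -0.95 ± 0.22), Kif23 (-0.78 ± 0.20) and Ect2 (-0.61 ± 0.15), both of cytokinesis. None of the 3 passed in more than 2 of 6 fits leaving out 1 library, and DESeq2 called 0 of the 43, where 21 were lower at an unadjusted p under 0.05 in edgeR. Among the pluripotency genes 17 were lower at that level, and among all 9811 genes 769. Under scaling by library size alone the median was 0.30 for all genes, -0.14 for the pluripotency list and -0.04 for the mitosis list. Then 24 of the 37 and 25 of the 43 genes had a negative change, against 1796 of all 9811.

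Many of the decreases lay in long genes. Of all 9811 genes tested, 94.8% could be placed on the genome, and 1005 of these span over 100 kb. Of the 12 largest decreases outside the histones, 11 could be placed on the genome and 8 of these span over 100 kb, against 0 of the 12 largest increases. They included Arl15, a small GTPase gene of 363 kb (1.69, 2.35 and 1.74 CPM against 4.94, 6.22 and 3.64 CPM, log2 change -1.33 ± 0.26), and Enox1 of 565 kb (2.34, 3.06 and 2.66 CPM against 3.99, 6.22 and 7.6 CPM, -1.18 ± 0.24). Zfp462, a zinc finger gene of 139 kb, was at 2.69, 2.09 and 2.66 CPM against 7.03, 4.71 and 4.81 CPM (-1.13 ± 0.24). For these 3 genes the edgeR adjusted p was 0.00645, 0.00867 and 0.0111. Groups without overlap were a condition for choosing the 12. Arl15 was lost without control 8.5.16 (adjusted p 0.0609), Zfp462 without cisplatin 8.4.3 (0.108), and Enox1 without cisplatin 8.3.3 or control 8.6.16 (up to 0.0925).

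Others of the 12 were Cobl, an actin nucleator (-1.23), Pard3, a polarity protein (-1.23), Tbl1x, a corepressor subunit (-1.26), Cdk6, a G1 kinase (-1.17), Akap13, an anchoring protein of protein kinase A (-1.14), Ptch1, the Hedgehog receptor (-1.16), Phf12 (-1.12) and Noct (-1.32), each called in 0 to 4 of the 6 fits leaving out 1 library. With abundance counts Cdk6 had an edgeR adjusted p of 0.0596.

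Protein-coding genes other than histones were divided by genomic span. In the 945 genes under 5 kb, 13 were higher and 2 lower with a median log2 change of 0.05, and in the 2950 genes of 5 to 20 kb, 35 were higher and 3 lower with a median of 0.07. In the 4053 genes of 20 to 100 kb, 40 were higher and 11 lower, with a median of -0.02. The 1000 genes over 100 kb had 4 higher and 31 lower (3.1%), a median of -0.27, and 76.7% of them had a negative change. Across the 6 fits that left out 1 library the median of the longest class was between -0.31 and -0.21. The count of its genes called lower was less stable: it was 8 without cisplatin 8.3.3, 7 without cisplatin 8.4.3, 15 without cisplatin 8.5.3, 17 without control 8.4.16, 41 without control 8.5.16 and 19 without control 8.6.16. Under scaling by library size alone the median of this class was 0.047, below the 0.30 of all genes but above 0. In mRNA libraries the medians of the 4 classes were 0.05, 0.04, -0.07 and -0.34. Single-exon genes (132, median 0.04) and genes with several exons (8816, median -0.00) differed little. Genes are not replicates, so these are descriptions.

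**Figure D4:**
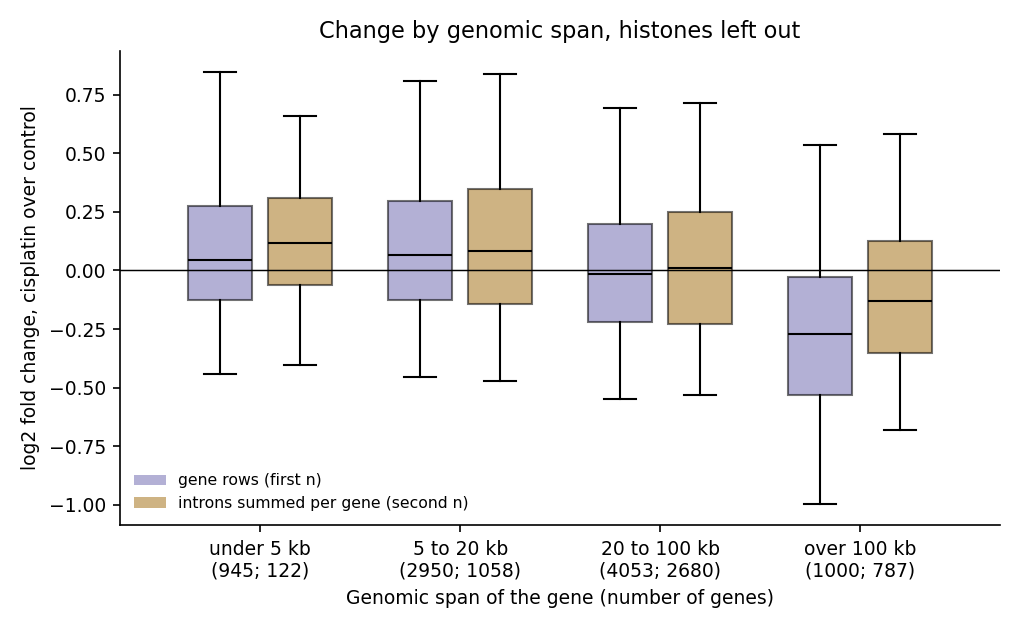
Log2 fold change (cisplatin over control) by genomic span for gene rows (purple) and summed introns (brown), with boxes at the quartiles, a line at the median and whiskers at the 5th and 95th percentiles. The medians over 100 kb are -0.27 for gene rows and -0.13 for introns.

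Introns gave a second readout, from rows of the same libraries that the gene comparison did not use. Whether their counts came only from unspliced RNA of the gene around them was not tested. Of the regions in the table, 46857 coincide exactly with an intron of GENCODE vM1, and 39790 were kept and summed over 9573 genes, of which 4944 were tested. Intron counts were higher for 50 genes (1.01%) and lower for 23 (0.465%), 1.48% in all. Mdm2 had intron counts, scaled to CPM over intron counts alone, of 231, 263 and 321 with cisplatin and 83.9, 75.8 and 62.9 in the controls. All cisplatin libraries were far above the controls, and introns of Mdm2 rose by 1.88 ± 0.21 on the log2 scale (edgeR adjusted p = 6.05e-07), against 1.14 in its gene row. Those of Ccng1 were 97.0, 130 and 117 against 53.4, 23.2 and 25.2 and rose by 1.88 (edgeR adjusted p = 5.05e-05). Both passed in each fit leaving out 1 library, while intron increases of Cdkn1a (1.54), Zfp365 (1.81) and Lpin1 (1.11) passed in the full fit and in 0, 0 and 1 of those fits. Of 31 p53 targets with tested introns, 8 were higher and 0 lower, with a median of 0.59, against 0.01 for the introns of all genes tested.

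The largest intron increases were in Cyyr1 (47.8, 40.9 and 55.4 against 3.82, 8.43 and 2.52 scaled counts, log2 change 3.10, edgeR adjusted p = 5.05e-05), in Tef, a PAR bZIP transcription factor (2.83), in Bora (2.61), in Ripk4, a kinase of epidermal differentiation (2.49), and in Plk2 (2.37). Before scaling, the control counts were only 1, 4 and 1 for both Cyyr1 and Ripk4, 1, 3 and 1 for Tef and 1, 5 and 0 for Plk2. Cyyr1 and Tef passed in every fit leaving out 1 library, Ripk4 in 3 of the 4 in which it had enough counts, Plk2 in 3 of 6 and Bora in 2 of 6. Bora was uneven within its groups, at 2965, 2361 and 7087 against 34.3, 35.8 and 1943 scaled counts, with control 8.6.16 apart from the other controls, and its gene row had a change of -1.21 that did not pass. With cisplatin its introns held 2171, 2136 and 3708 counts before scaling, while its gene row held 6, 9 and 14. The largest decreases were in Ntn1, the guidance cue netrin-1 (-1.95), in Klf12, a Krüppel-like repressor (-1.83), in Sema3e, a semaphorin (-1.77), in an intron of the histone gene H2bc4 (-1.40) and in Gnpat, an enzyme of ether lipid synthesis (-1.37). Klf12, at chr14:100269869-100549015 on the minus strand, was at 34.1, 42.0 and 26.8 scaled counts against 99.2, 147 and 123 and passed in every fit leaving out 1 library. Its gene row, like that of Cyyr1, was too low to be tested. Ntn1, Sema3e and Gnpat passed in 2, 4 and 4 of the 6 fits, and for Gnpat control 8.4.16, at 679, was far above the other controls at 257 and 226. Ntn1 had 6, 5 and 3 counts before scaling with cisplatin and 10, 9 and 10 in the controls.

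Within genes over 100 kb, intron counts differed between groups by their distance from the gene start, a division chosen after seeing the data. In introns centred under 25 kb from the start, the cisplatin libraries held 11905, 11664 and 12493 scaled counts and the controls 12241, 11974 and 10883, so the groups overlapped and the cisplatin mean was 103% of the control mean. From 25 to 50 kb it was 96.4%, again with overlap. From 50 to 100 kb it was 90.6%, from 100 to 200 kb 86.2%, and beyond 200 kb 76.1%. In these last 3 classes every cisplatin library lay below every control library, with an exact two-sided permutation p of 0.1, the smallest that 3 against 3 can give. Beyond 200 kb the values were 6192, 6308 and 6891 scaled counts with cisplatin and 8429, 8905 and 8130 in the controls. The share of these intron counts that lay beyond 100 kb does not depend on scaling, and it was 33.5%, 33.2% and 33.7% with cisplatin and 36.3%, 36.4% and 36.7% in the controls. It came from 3427 introns, and no gene held more than 7.52% of the counts of a distance class.

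**Figure D5:**
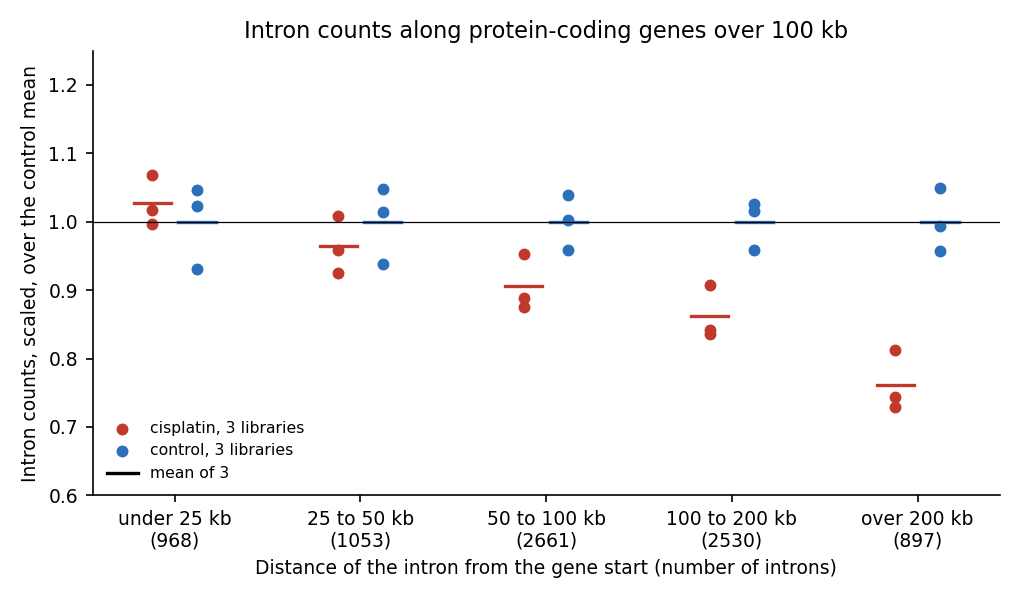
Scaled intron counts of protein-coding genes over 100 kb, divided by the control mean (y axis, not starting at 0), by distance of the intron's middle from the gene start (x axis), for 3 cisplatin (red) and 3 control (blue) libraries. The cisplatin mean goes from 103% of the control mean under 25 kb to 76.1% beyond 200 kb.

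Of 445 non-coding RefSeq genes tested, 4 were higher (0.899%) and 2 lower (0.449%), against 0.989% and 1.1% of all genes. The pseudogenes Pisd-ps1 and Pisd-ps3 had identical counts and were at 29.1, 25.3 and 25.9 CPM with cisplatin and 14.2, 12.9 and 10.7 CPM in the controls (log2 change 1.10 ± 0.16, edgeR adjusted p = 0.000789), and they count as 1 measurement. The microRNA precursor rows Mir409 and Mir540, both of the imprinted Dlk1-Dio3 cluster, were lower. Mir409 was at 1.34, 0.887 and 1.56 CPM against 3.8, 3.58 and 3.1 CPM (-1.51 ± 0.28, edgeR adjusted p = 0.00568, and 0.0649 without cisplatin 8.4.3). Mir540 was at 17.3, 15.4 and 20.2 CPM against 27, 29.9 and 25.1 CPM (-0.64 ± 0.16, edgeR adjusted p = 0.0411, called in 1 of 6 fits leaving out 1 library).

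Small nucleolar RNAs, which guide chemical modification of ribosomal RNA, varied widely between libraries of a group. Of 66 C/D box snoRNAs 0 passed in edgeR or DESeq2, with 3 at an unadjusted p under 0.05 and a median of 0.26. Of 41 H/ACA box and Cajal body RNAs 0 passed in either, with 3 at an unadjusted p under 0.05 and a median of -0.08. The C/D box RNAs summed to 456872 to 899739 CPM in the cisplatin and 334665 to 657812 CPM in the control libraries, so the groups overlapped, with the highest value in cisplatin 8.5.3. Snord55, named after its values were seen, was at 147877 ± 64103 CPM with cisplatin and 108237 ± 28215 CPM in the controls (SD, n = 3, edgeR adjusted p = 0.841). No gene was called among 90 ribosomal protein genes (median -0.00), 17 snoRNA host genes, 12 polymerase III and ribozyme RNAs, 14 long non-coding RNAs, 12 Wnt pathway genes and 15 genes of the 2-cell-like state. The same held for 8 feeder, 4 primitive endoderm and 7 neural genes tested from wider marker lists than the short ones used above to check the cells. Of these 179 genes DESeq2 also called 0, and 11 had an unadjusted p under 0.05 in edgeR. Over all genes tested edgeR called 2.09%. Of 4 tested genes of the wider trophectoderm list 1 was higher, against 0.989% over all genes tested. It was Krt19, a keratin (2.1, 2.75 and 2.57 CPM against 0.95, 1.13 and 0.963 CPM, log2 change 1.26 ± 0.31, edgeR adjusted p = 0.0362), which passed in 0 of 6 fits leaving out 1 library.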

How the data were processed

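RNAome libraries were made from total RNA depleted of rRNA, fragmented and ligated to small RNA adapters, then sized on a gel to 15 to 500 nt, each with its own index, per the labels' protocols. The authors deposited raw counts per region, in an expression and an abundance table, and only these were used. The submitters' processing notes name Bowtie, TopHat, edgeR and mm9, with no roles. How reads were counted, and why the tables differ, is not stated there. RefSeq rows of the expression table were matched to symbols (17334 of 17787), and the row with the highest mean CPM was kept per gene. The gene test was edgeR 4.0.16 on R 4.3.3 (filterByExpr, TMM, quasi-likelihood, two-sided, Benjamini-Hochberg). SE is the log2 change divided by the square root of F. CPM means are over 3 libraries. Gene positions and introns are from GENCODE vM1 on NCBIM37, the assembly of mm9. Introns overlapping small RNA genes or exons of other genes, or with expression counts over 1.5 times abundance counts, were left out. Promoters are from RefSeq on GRCm38.p6.

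The genes, lists and tests were chosen with earlier results of these data known. Named genes are the 12 largest changes in each direction among genes called without overlap and above a mean log2 CPM of 1, histones left out of the decreases, then up to 4 called members of each list, called non-coding genes and a few fixed genes, with up to 6 per direction for the assay difference and 5 for introns. On simulated counts for the gene comparison (8995 genes), 75.4% of 69 genes changed by 1 on the log2 scale were recovered. The share was 98.3% of 59 genes changed by 1.5 and 100% of 72 changed by 2, and 20 unchanged genes were called. Changed genes were drawn only above a minimum mean CPM, so these shares do not cover genes with lower counts. The alternatives were DESeq2 1.42.0, other scalings, filters, tables, thinned counts and fits without each library.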

Additional observations from a re-analysis of the deposited data

How the results depend on the processing

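Higher and lower genes numbered 97 and 108. RLE scaling, coding rows alone, no count filter, a minimum of 30 counts and the abundance table kept both within 1.5 times. Preferring the transcript shared with the mRNA table gave the same 97 and 108 genes as the main fit, so it is not a separate check. DESeq2 gave 57 higher. Thinning to the lowest library gave 47 higher and 69 lower, and leaving histones out gave 37 lower. Library size alone gave 12 higher, 0 lower, 0 histones, 5 p53 targets, and a median of 0.047 for genes over 100 kb. Title codes 8.4 and 8.5 occur in both groups, but no label says that a number marks a shared source. Deviations of these pairs correlated at -0.11 and 0.12, and those of the same sample code in both assays at 0.079 to 0.27, so the correlations do not settle it. That replicate block over 4 libraries gave 9 higher, 3 lower, 3 histones and 8 p53 targets, and the same 4 libraries without the block, added after seeing the data, gave 16, 8, 7 and 9.

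Without 1 library at a time, higher genes ranged from 40 to 100, lower genes from 36 to 130, histones lower from 27 to 63, p53 targets higher from 12 to 21, and the median of genes over 100 kb from -0.31 to -0.21. Of 205 calls, 61 held in all 6 of these fits. Genes differing between assays were 0, with 10 under the sample block, 26 in DESeq2 and 0 to 19 leaving out 1 sample. Intron genes, 50 higher and 23 lower, were 19 and 13 with the scaling of the gene comparison, and 14 to 40 and 3 to 29 leaving out 1 library. Of 71 named genes called, none changed direction under the gene alternatives in which it was tested. Low counts limit single genes: the median tested gene had 254 counts over 6 libraries.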
